A study of Capra hircus with 24 samples.

Results

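In goat RNA measured on a cattle oligonucleotide array, 152 of 43653 probes (0.348%) gave a signal well above background in the blood cells of all 8 goats and in none of 16 milk samples. They stand for 147 transcript accessions. A probe belonged to the set if its sample signal (the dye Cy5) carried the scanner software's flag for well above background on all 8 blood arrays and on no array of milk somatic cells or milk fat globules. The flag was averaged over the spots of a probe, control spots were left out, and a short list of accessions not reported here was dropped, which took out 1 probe. These flags chose the members, so the contrast of blood with milk is described below with no test.

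Blood that has been freed of red cells yields lymphocytes, monocytes and granulocytes. Milk somatic cells are largely white cells that have crossed into the milk, together with epithelial cells shed from the udder. Milk fat globules are lipid droplets that leave the secreting epithelial cell wrapped in its membrane and can carry a crescent of its cytoplasm, so their RNA is used to look at the secreting cell. In bulk RNA, fewer cells of a type and less RNA per cell cannot be told apart.

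The healthy female goats, all in 3rd lactation, came from the breeds Polish White Improved (PWI, 4 goats) and Polish Fawn Improved (PFI, 4 goats), and each source of RNA was hybridised on 8 arrays, 4 per breed. The sources were peripheral nuclear blood cells (PNCB), milk somatic cells (MSC) and milk fat globules (MFG). Cy3 on every array carried a common reference, which was a pool of RNA from blood nuclear cells of 7 other goats in 4th lactation (4 PWI and 3 PFI), and no array had the dyes exchanged. Blood was treated with an erythrocyte lysis buffer and extracted with one kit and both milk sources with another, so the kit and the contrast of blood with milk cannot be told apart. Each of the 6 groups lay on its own slide, and the MFG arrays were scanned on another day. Probes were designed on cattle transcripts, and the files pair them with accessions and not with gene names. None of the 26748 accessions (0) matched the goat gene table, so members are called by accession, no function is given for them, and the cell types could not be checked against marker genes.

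Detection separated some arrays from the rest. The share of all probes well above background in Cy5 was 57.5% to 65.6% on the PNCB arrays, 51.2% to 60.9% on the MSC arrays and 44.1% to 51.5% on 6 of the MFG arrays. The MFG arrays of PWI goats 2 and 4 stood at 84.6% and 75.3%. Those arrays were also the ones where a probe needed the most signal to pass. Net Cy5 is the median spot intensity minus the local background, in scanner units, and its 1st percentile over the probes that passed was 14 to 20.5 on 22 arrays, 36 on the MFG array of PWI goat 4 and 152.5 on that of PWI goat 2. Among PNCB arrays, those of PWI goats 3 and 4 had a weak reference, with 20.4% and 19.9% of all probes detected in Cy3 against 43.1% to 46.5% on the other 6.

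The milk side of the rule was decided largely by those MFG arrays. Of 24047 probes detected on all 8 PNCB arrays, 712 were detected on no MSC array, 867 on no MFG array and 152 on neither. With those arrays left out, 635 probes met the rule. Of the 483 added, 325 were detected on both arrays, 157 on that of goat 2 alone and 1 on that of goat 4 alone. On the blood side the array of PWI goat 4 weighed most, since 61 of the 75 probes that missed the rule by 1 PNCB array missed it there.

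Most members were dim in blood in scanner units, though their median was above that of all probes on each PNCB array. Over all probes, detected or not, the median net Cy5 was 28 to 57.5 on these arrays. The median net Cy5 of the 152 members was 62.25, 62, 60.5 and 29.25 on the PNCB arrays of PWI goats 1 to 4, and 38.5, 41.75, 65 and 59.5 on those of PFI goats 1 to 4. On the MSC arrays it was 7 to 11, and on 6 MFG arrays it was 5 to 7. No member value on those 14 milk arrays was above 22. For 141 members the lowest of the 8 blood values was above the highest of the 14 milk values, a separation that the rule itself favours.

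The other MFG arrays were different in raw intensity. On the array of PWI goat 2 the members had a median net Cy5 of 104, from 26.5 to 154.5, which was above the median of members on every blood array. That array was bright throughout, with a median of 322 over all probes against 28 to 57.5 on the PNCB arrays. Only 10 members had all 8 blood values above their value there. On the array of PWI goat 4 the median of members was 18, from 4 to 34, and 116 members had all blood values above it. On these arrays the flag was 0 at readings as high as those of many members in blood.

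Closeness to the limit of detection was common. Of the members, 56 reached at least 2 times that 1st percentile on all 8 PNCB arrays. The other 96 fell under it on at least 1, and 79 did so on the array of PWI goat 4. These counts were made over members alone, so whether other probes differ in this was not tested. A more permissive flag, for a signal positive and significant against background, was set on at least 8 of the 16 milk arrays for 56 members, and TC441483 (probe A_73_104273) was the only member with it on no milk array.

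Because no milk reading was well above background, the fold of blood over milk is given only as a lower bound. The bound sets the mean normalized log2 Cy5 in PNCB against the mean, per milk array, of the lowest signal among detected probes or the probe's own signal, whichever was higher. Both sides of the bound were read in Cy5, so a dye bias that is constant for a probe is shared by them. A bias that varies with the array was not tested. Over the 152 members the median bound was 1.33-fold against MSC (1.05 to 8.26) and 1.37-fold against MFG (1.04 to 6.57). The bound was at least 1.5 against both sources for 39 members, at least 2 for 16, at least 3 for 4 and at least 4 for 2. By these bounds most of the set is known only to be somewhat higher in blood, and a small group carries larger bounds. The normalized signals include the normexp offset of 50, which draws folds of dim probes toward 1. In net Cy5 without offset or normalization, the PNCB median over the MSC median had a median of 6.89 over members (2.2 to 136). These ratios are not measured folds, as no MSC reading of a member was well above background. By the more permissive flag, 45 to 121 of the 152 members were positive and significant on single MSC arrays. Over the 6 other MFG arrays, with PWI goats 2 and 4 left out, the median was 1.28, and for 2 members, NM_001099050 (A_73_P400166) and NM_001100322 (A_73_P206352), it was under 1, so no fold is given for them against the other 6.

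NM_001192916 (A_73_P421691) was the member with the largest bounds. Its net Cy5 in blood was 1015.5, 1141.5, 1890 and 376.5 in PWI goats 1 to 4 and 542, 1440, 1534 and 1866.5 in PFI goats 1 to 4. It was 1.5 to 18 on the MSC arrays, 0 to 12 on 6 MFG arrays, 150.5 on that of PWI goat 2 and 30 on that of PWI goat 4. Every blood value exceeded every milk value. Blood was at least 8.26-fold higher than MSC and at least 6.57-fold higher than MFG, or 5.70-fold with 6 MFG arrays. The spots of PWI goats 1 and 4 carried an outlier flag, so the bounds rest on 6 PNCB arrays.

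DV893522 (A_73_P164647), a GenBank transcript sequence, came next. Its blood values were 698, 437, 687 and 229 in PWI goats 1 to 4 and 251, 891, 904.5 and 769 in PFI goats 1 to 4, against at most 11.5 on the MSC arrays and on 6 MFG arrays. The groups did not overlap, also with the MFG array of PWI goat 2 at 112.5. Its bounds were 4.49 against MSC and 4.00 against MFG. In both of these members PWI goat 4 and PFI goat 1 were the lowest goats, and the arrays of these goats had the lowest medians over all members as well.

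NM_001192560 (A_73_114312) gave 297.5, 180, 335 and 268 in PWI goats 1 to 4 and 546.5, 541, 541 and 253 in PFI goats 1 to 4. Its milk values were 7 to 20 in MSC and at most 16 on 6 MFG arrays, with 32.5 and 7 on those of PWI goats 2 and 4. It differed from the members before it in reading high in PFI goat 1. Its bounds were 3.26 and 3.35.

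AY911373 (A_73_P103021) gave 362.5, 435, 490.5 and 108 in PWI goats 1 to 4 and 207.5, 359, 490.5 and 491 in PFI goats 1 to 4, with bounds of 3.14 against MSC and 3.16 against MFG. TC430158 (A_73_P398186), an assembled cluster of expressed sequence tags, gave 387, 391, 579.5 and 137 in PWI and 196.5, 412.5, 497 and 612 in PFI, with bounds of 3.31 and 3.00. As for DV893522, PWI goat 4 and PFI goat 1 were lowest on both. Both rest on 7 PNCB arrays, as the spot of PWI goat 4 was flagged.

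NM_001206783 was read by 2 member probes. A_73_P391581 gave 268, 227, 377 and 508.5 in PWI goats 1 to 4 and 784.5, 262.5, 453 and 141 in PFI goats 1 to 4. A_73_P161687 gave 157.5, 143.5, 216 and 291.5 in PWI and 592, 129, 263 and 76 in PFI. On both probes PFI goat 1 was highest, PWI goat 4 second and PFI goat 4 lowest, although the arrays of PFI goat 1 and PWI goat 4 had the lowest medians over members. The bounds were 3.12 and 2.90 for the first probe and 2.37 and 2.40 for the second, against MSC and MFG.

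Some members varied widely between goats. ENSBTAT00000017571 (A_73_P096331), an Ensembl transcript, gave 198, 90, 245.5 and 170 in PWI goats 1 to 4 and 757, 529.5, 512 and 166 in PFI goats 1 to 4, with bounds of 2.83 and 2.93 over 7 PNCB arrays, as the spot of PWI goat 4 was flagged. It was highest in PFI goats 1 to 3. NM_001102180 (A_73_119474) read 1344 in PFI goat 3 and 110.5 to 294 in the other 7 goats, with bounds of 2.67 and 2.57. DV878853 (A_73_101814) read 75 to 307.5 in 7 goats and 739.5 in PFI goat 3, but the spots of both PFI goat 3 and PWI goat 4 were flagged as outliers and not used, so its bounds of 2.15 and 2.19 rest on 6 PNCB arrays. All 3 read at most 16 on the MSC arrays. Over the 152 members the highest blood value was a median of 3.38 times the lowest, and for 55 it was at least 4 times. This span includes the brightness of whole arrays, since 86 members had their lowest value on the array of PWI goat 4.

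The remaining 6 members with both bounds at 2 or more were close to each other in bound. NM_001076168 (A_73_P345716) read 183, 274, 375 and 62 in PWI goats 1 to 4 and 81, 201.5, 301 and 388 in PFI goats 1 to 4, with bounds of 2.22 against MSC and 2.20 against MFG. NM_174748 (A_73_P178287) read 374, 350, 324 and 86 in PWI and 87, 96.5, 305.5 and 268.5 in PFI, with bounds of 2.19 and 2.22. Its low readings in PFI goats 1 and 2 set it apart from NM_001076168, where PFI goat 2 was not low.

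NM_001098984 (A_73_P050576) read 316, 205.5, 381 and 69 in PWI goats 1 to 4 and 83, 157, 304 and 254.5 in PFI goats 1 to 4, with bounds of 2.11 and 2.24 over 7 PNCB arrays. ENSBTAT00000019687 (A_73_P088546) read 232, 218, 226.5 and 46 in PWI and 130.5, 147.5, 296 and 199 in PFI, with bounds of 2.02 and 2.09. On both of these probes PWI goat 4 was lowest. NM_001100334 (A_73_P048141) read 66 to 164 in 7 goats and 379 in PFI goat 2, with bounds of 2.02 and 2.04. ENSBTAT00000020342 (A_73_P087316) read 28 in PWI goat 4, where its spot carried an outlier flag, 532 in PFI goat 3 and 120 to 267 in the other goats, with bounds of 2.31 and 2.31.

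Lower in the order, a reading in blood was not always matched in the reference pool. NM_001206716 (A_73_113192) read 79 to 250 in blood, had bounds of 2.04 and 1.96, and was detected in Cy3 on 22 arrays. NM_001243284 (A_73_113642) read 47 to 185 in blood, with bounds of 1.64 and 1.64, and was detected in Cy3 on 0 arrays. ENSBTAT00000009824 (A_73_P084896) read 53 to 230.5, with bounds of 1.94 and 1.95, and was detected in Cy3 on 7 arrays. Both member probes of NM_183084 read low in blood, at 21 to 105 (A_73_P041381) and 15 to 64.5 (A_73_P270306), and were detected in Cy3 on 0 arrays.

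The members with the smallest bounds lay at the edge of detection. NM_001100322 (A_73_P206352) read 17, 29.5, 26 and 14 in PWI goats 1 to 4 and 26, 37, 22.5 and 27 in PFI goats 1 to 4, against 7 to 17.5 in MSC and 11 to 20 on 6 MFG arrays. Its blood and milk readings overlapped. EH144582 (A_73_P201507) read 14.5 to 40.5 in blood and 6 to 15.5 in MSC, with bounds of 1.06 and 1.12. BC151325 (A_73_P030176) read 17 to 60 in blood and 0 to 20 in MSC, with bounds of 1.08 and 1.16.

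Just outside the rule, the 483 probes that met it only without those MFG arrays had a median bound of 1.24 against MSC, and 27 of them (5.59%) reached 2, against 17 of 152 members (11.2%). The largest bounds among them lay within the range of the members. NM_001281914 (A_73_111306) had a bound of 6.46 and read 408.5 on the MFG array of PWI goat 2 and at most 12 on the other 6. NM_001205807 (A_73_P445116) had 6.02, with 359 and at most 10. NM_001113259 (A_73_P258641) had 5.54, with 394 and at most 8.5. NM_001205807 was kept out by the array of PWI goat 2 alone. NM_001281914 and NM_001113259 were also detected on the MFG array of PWI goat 4, where they read 64.5 and 43.

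The Cy3 channel gave a reading of these probes that the rule had not used, in blood of other goats. Over 24 arrays, 130 members (85.5%) were well above background in Cy3 on at least 1 array, against 92.5% of all probes. On at least 12 arrays it was 48 members (31.6%), against 46% of all probes and 82.4% of the probes detected on all 8 PNCB arrays. On both counts the share of members was below that of all probes, but this did not hold on every array. On the 6 MFG arrays without PWI goats 2 and 4, Cy3 detected 49.3% to 72.4% of members, against 53.4% to 57.1% of all probes. On the MFG array of PWI goat 2, where the rule required no Cy5 flag, it detected 40.8% of members and 88.0% of all probes. On all 24 arrays 1 member was detected in Cy3, NM_001192916, against 13.5% of all probes. Without the PNCB arrays of PWI goats 3 and 4 it was 20 members on 22 arrays. There were 22 members with no Cy3 detection on any array.

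Detection in the pool went with the size of the bound. All 16 members with both bounds at 2 or more were detected in Cy3 on at least 12 arrays, and so were 32 of the 136 others. Spearman's rho between the number of Cy3 arrays and the smaller bound was 0.72 over 152 probes, which share the same arrays. The milk side of the bound lies close to a floor, so the bound mostly follows signal in blood. Cy3 also reads blood RNA on the same spots, so the relation is partly built in and is a description only. As a mirror set, 288 probes were detected in Cy5 on all 16 milk arrays and no PNCB array. Of these, 257 (89.2%) were detected in Cy3 on at least 1 array and 23 (7.99%) on at least 12. On single MSC arrays, 29 to 60 members (19.1% to 39.5%) were detected in Cy3, against 41.5% to 47.6% of all probes. On 6 PNCB arrays it was 41 to 56 members (27.0% to 36.8%), against 43.1% to 46.5% of all probes. On the PNCB arrays of PWI goats 3 and 4 it was 5 and 11 members (3.29% and 7.24%), against 20.4% and 19.9%. Of the probes detected in Cy5 on all 8 PNCB arrays, 73.9% to 83.5% were detected in Cy3 on the MSC arrays, 76.7% to 82.1% on 6 PNCB arrays, 35.6% and 30.1% on those of PWI goats 3 and 4, and 92.3% to 96.9% on the MFG arrays. For members it was 75 to 110 on 6 MFG arrays, with 62 and 69 on those of PWI goats 2 and 4. The mirror set was detected in Cy3 on 237 and 133 of its probes on these last arrays and on 28 to 44 on the other MFG arrays, although Cy3 held blood RNA throughout. The part of this in the results was not tested.

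Other probes of the same accessions showed whether the transcript as a whole went unseen in milk. The array held 139 further probes for 63 of the 147 accessions, and 92 of them, for 47 accessions, were detected on all 8 PNCB arrays. Of these 92, 25 (27.2%) were detected on all 16 milk arrays, against 63.0% of all probes detected on all 8 PNCB arrays. On the 14 milk arrays without those of MFG PWI goats 2 and 4, 16 (17.4%) were detected nowhere, against 2.66%. So 19 of the 147 accessions had another probe that was detected in every blood and every milk sample. For 7 accessions every other probe seen in all blood was detected on none of those 14 milk arrays.

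The further probes were mostly lower in milk. The log2 ratio to the reference was lower in MSC than in PNCB for 77 of 92 (83.7%), against 56.6% of all probes detected on all 8 PNCB arrays. The median difference of MSC minus PNCB was -0.41, from -3.69 to 1.89, against -0.08, and that of MFG minus PNCB was -0.49 against -0.20. These counts are descriptions, since the accessions were chosen on the same samples.

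NM_174392 had the lowest of these values. Its further probe A_73_105421 had a net Cy5 of 2908.5 to 11242 in blood (median 6562.5), 117 to 184.5 in MSC and 37.5 to 53 on 6 MFG arrays, and was detected on all 24 arrays. Its log2 ratio was 0.74 ± 0.65 in blood (SD, n = 7, as 1 spot carried an outlier flag). In milk it was -2.95 ± 0.27 for MSC (SD, n = 8) and -3.26 ± 0.20 for MFG (SD, n = 8). The member probes of the same accession read 41 to 135.5 (A_73_P250796) and 16 to 57.5 (A_73_P250631) in blood. One accession was thus detected in every milk sample by one probe and in none by its member probes.

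NM_001076168 was also detected in milk by another probe. Its member probe A_73_P345716 read 62 to 388 in blood, while A_73_113331 read 797 to 3751 in blood, 27.5 to 145.5 in MSC and 23 to 43 on 6 MFG arrays, with a difference of -2.64 for MSC and -2.77 for MFG. For NM_001192916 a further probe, A_73_P429046, was detected on all 24 arrays and read 242 to 851 in blood, 31 to 53.5 in MSC and 26 to 35 on 6 MFG arrays. The leading member of the set was therefore not without signal in milk by every probe. By contrast, A_73_P091786 of NM_001192560 read 162.5 to 417.5 in blood and at most 17 in MSC, and was detected on no MSC array and, in MFG, on those of PWI goats 2 and 4 alone. A_73_110569 of TC430158 read 131 to 646.5 in blood and at most 16 in MSC, and was detected on no MSC array and on 1 of the same MFG arrays alone.

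In a few accessions some further probes were as high in milk, while others were not. A_73_P477853 of NM_001100334 differed by 0.04 in MSC and -0.02 in MFG and was detected on all 24 arrays. Of the 6 further probes of NM_174841, 3 were detected on all 24 arrays and were 0.69 to 0.95 higher in MSC, but with flagged spots left out these values rest on 4 to 6 arrays in PNCB and 4 to 6 in MSC. The median net Cy5 of these probes was 101310 to 169169.5 in PNCB and 105410.5 to 186137.75 in MSC. A_73_116764 and A_73_P063316 of the same accession were lower in MSC, at -1.42 and -0.72. Their median net Cy5 in PNCB was far smaller, at 1471.75 and 149.5. Among 10 further probes of NR_001464, A_73_P453111 was 0.31 higher in MSC and the other 9 were lower, down to -1.96 for A_73_115509. Probes of one accession need not read the same transcript form in goat RNA, and which of them does was not tested.

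Where 2 member probes read 1 accession, their log2 ratios could be compared over goats, on arrays they share. Of 5 such accessions, NM_174392 had Pearson's r = 0.89 (exact permutation p = 0.00833, adjusted over 5 pairs 0.0417) and Spearman's rho = 0.94 (exact p = 0.0167, adjusted 0.0698) over 6 goats. Without the 2 goats farthest from the median r was 0.82 over 4. The other 4 pairs had r of 0.63 (NM_183084), 0.59 (NM_001206783), -0.72 (ENSBTAT00000065452, 7 goats) and -0.91 (NM_001099050), with adjusted exact p from 0.123 to 0.158. Without the farthest goats these were 0.28, -0.20, 0.07 and -0.31. Pairs of the same accession thus ran from opposed to parallel, and a breed holds too few goats for a value within it.

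The rule did not use breed as such, but a member had to be detected in the blood of every goat of both breeds. A probe undetected in the blood of either breed was therefore barred, and large breed differences were selected against. The comparison of breeds addresses whether PWI and PFI goats differ in their blood cells. In limma, 0 members differed between breeds at an adjusted p of 0.05 or less, with 3 calls over 27408 probes (0.0109%). At an unadjusted p under 0.05 there were 4 members (2.63%), against 3.56% of all probes tested. In a fit of only the 24044 probes detected on all 8 PNCB arrays, it was 2.63% of members against 3.62%. That order turned under several other settings, among them 31 members (20.4%) against 10.2% of all probes with processed signals, 23 (15.1%) against 8.96% in the authors' deposited table and 10 (6.58%) against 3.44% with median centring, while members called stayed at 0. The difference of PWI minus PFI had a median of 0.04 over members and 0.04 over all probes, and ran from -0.91 to 0.81, with 81 members above 0 and 71 below. The median SD within a breed was 0.33 for members and 0.29 for all probes.

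TC413541 (A_73_116772) had the smallest p. Its log2 ratio was 0.19, 0.67, 0.57 and 0.45 in PWI goats 1 to 4 and 0.05, -0.11, -0.09 and -0.26 in PFI goats 1 to 4. All PWI goats were above all PFI goats, by 0.57 on average (SE 0.16), with an unadjusted p of 0.00425 and an adjusted p of 0.972 in limma. CO875926 (A_73_P073586) differed by 0.74 over 7 arrays, NM_001102172 (A_73_P044866) by 0.59 and NM_001081539 (A_73_P263681) by 0.59 over 6 each, and ENSBTAT00000029674 (A_73_P043281) by 0.46 over 7. None of these passed the adjustment. The PNCB arrays of PWI goats 3 and 4, with the weak reference, had median member log2 ratios of 0.38 and 0.19. On the other 6 PNCB arrays the median was 0.07 to 0.11. Without those arrays of PWI goats 3 and 4, the 5 differences were 0.53, 0.52, 0.41, 0.28 and 0.24, in the order given. Few PWI goats are then left, and the part of the weak reference in the breed differences was not tested. Among 100 members measured in all 8 goats, 2 had every PWI goat above every PFI goat (TC413541 and TC446532, chosen by that count), where 1.53% of all such probes did, and 0 the reverse, where 0.887% did.

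The interval of the breed difference bounds what may have been missed in the normalized ratio, and not in the amount of RNA. For 117 members (77.0%) the 95% interval lay within a 2-fold change of this ratio either way, against 86.9% of all probes tested. For the others a larger difference could not be told from none at this number of goats. The ratios include the normexp offset of 50, which shrinks the folds of dim probes. The PNCB median net Cy5 per member had a median of 51.6 over members. An interval within 2-fold therefore does not exclude a 2-fold difference in RNA for dim members. Slide and breed cannot be told apart here.

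The kind of accession also set the members apart from the array as a whole, as a description. RefSeq mRNA accessions made up 73 members (48.0%), against 62.8% of all probes and 71.7% of probes detected on all 8 PNCB arrays. Assembled tag clusters made up 33 (21.7%), against 9.11% and 9.06%. GenBank sequences made up 20 (13.2%), against 8.12% and 5.27%. These shares were not tested. The members were spread over the array surface, with 34 to 43 members in each of 4 equal bands of rows.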

How the data were processed

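RNA from 3 sources of 8 goats was measured on 24 arrays with 45220 spots each, of which 43803 were not controls and made 43653 probes. Per the file headers, the deposited scanner files hold spot and background intensity in both channels, extracted with Agilent Feature Extraction 10.7.3.1 (also in the submitters' processing notes) and not normalized, with flags of 0 or 1 and processed signals. The table deposited by the authors gives Cy5 over Cy3 as a log10 ratio, equal to the software's own. The number of arrays limits the precision, and no member was saturated.

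Values were computed with R 4.3.3 and limma 3.58.1. Spots with an outlier flag were left out (109 of 3648 member spots), background was corrected by normexp (offset 50), and ratios were normalized by loess within arrays with controls at weight 0. Spots of a probe were averaged. Bounds used Cy5 after Aquantile. Breeds were compared in PNCB by lmFit and eBayes on the 27411 probes that were well above background in every goat of 1 or more groups (27408 fitted), with Benjamini-Hochberg adjustment at 0.05. The fit was tested on simulated data for this comparison, over 27357 probes. It recovered 59 of 100 probes changed by a log2 of 1 and 89 of 100 changed by 2, with 6 false calls each time. Recovery among members was not measured apart.

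Probes were named by rule: the 25 largest bounds, accessions with 2 member probes, the 5 smallest breed p-values and the 3 smallest bounds, 1 probe per accession. Probes outside the rule of membership and further probes of member accessions were singled out after their values were seen. The members and lists were chosen with earlier results of these data known. The gene lists and cell type markers set for the work were not run, as no accession had a gene name. No probe sequence was used. The alternatives tried were other flags, normalizations, channels and signals, leaving out arrays, array weights and a replicate block.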

Additional observations from a re-analysis of the deposited data

Results flagged for a closer look

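In groups of 4 arrays, 8 of 84 values tested had 1 array far outside the others, and about 4.2 would be so by chance at 5%. The median net Cy5 of members was 29.25 on the PNCB array of PWI goat 4, against 60.5 to 62.25 in the other PWI goats. It was 104 on the MFG array of PWI goat 2, against 5 to 18, and 5.5 on the MFG array of PFI goat 1, against 6.75 to 7. The others were log2 ratios of single members in PNCB. A_73_P103021 (AY911373) was -0.20 in PFI goat 1, against -0.03 to -0.02. A_73_P178287 (NM_174748) was -0.27 in PWI goat 4, against 0.14 to 0.16. A_73_P250631 (NM_174392) was -1.43 in PWI goat 3, against 0.07 to 0.26 in the PWI goats measured. A_73_P044866 (NM_001102172) was -0.10 in PFI goat 1, against 0.13 to 0.17. A_73_P201507 (EH144582) was -1.11 in PFI goat 4, against -0.21 to -0.04. The cause of these values was not tested.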

How the results depend on the processing

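The number of members depended on the flag and on single arrays. It was 152 as reported, 13 with the flag for positive and significant signal, 635 without the MFG arrays of PWI goats 2 and 4 and 74 with no outlier-flagged spot used. Leaving out each PNCB array in turn gave 152 to 213, the highest without PWI goat 4. The breed calls over all probes were 3 as reported, 7 with processed signals, 8 with array weights, 6 without the PNCB arrays of PWI goats 3 and 4 (chosen after seeing the data), 2 to 4 without each array, and 0 with flagged spots kept in the normexp fit (limma, 787 at an unadjusted p under 0.05). With a replicate block it was 0 (747 at an unadjusted p under 0.05). The goat numbers do not pair PWI with PFI goats, whose deviations correlated at -0.29, -0.25, 0.09 and -0.52 for numbers 1 to 4. Members called were 0 under every setting run. The median breed difference over members was 0.04 as reported, -0.091 with median centring and -0.17 in the authors' deposited table, where the median over all probes was 0.27, against 0.29 with processed signals. The difference of A_73_P263681 reversed to -0.017 with Cy5 alone, and in the authors' deposited table A_73_P044866 reversed to -0.19 and A_73_P043281 to -1.77. Members detected in Cy3 on all arrays were 1 as reported, 7 with the permissive flag and 20 without the PNCB arrays of PWI goats 3 and 4. The cause of these changes was not tested. The other 137 values kept their direction and side of the threshold or stayed close to the reported value. Signal near background limits every comparison with milk to a lower bound.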
